A study of Mus musculus with 58 samples.

Results

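Neuroligins and cerebellins are protein families that bind neurexins, and 6 of their genes were followed here across single inhibitory neurons of the ventral subiculum of mice, which carries output of the hippocampal formation. The members were fixed by name, as Nlgn1, Nlgn2, Nlgn3, Cbln1, Cbln2 and Cbln4, and all 6 of 6 were found among the 25648 genes of the count table. The cells were parvalbumin (PV) interneurons of PV-Cre::Ai9 mice, in which Cre expressed from the parvalbumin gene switches on a red reporter, so a cell is marked if it has expressed that gene at any time. Cytosol of each patched cell was drawn into the pipette and made into 1 library. The series holds 58 cells from 3 female and 4 male animals, of which 54 carried the quality label Pass and are used here: 27 female cells, 17 of postnatal day 40 (P40) and 10 of P42, and 27 male cells, 14 of P35 and 13 of P36. No treatment or mutation separated these cells, and all carried the same Cre and reporter alleles. Which animal a cell came from is not labelled, so cells are not independent replicates. Counts were therefore also summed into 4 pools by sex and age, and the number of animals in a pool is unknown. Both female pools were of older mice than both male pools, so sex and age cannot be told apart. A Pass cell had between 2054581 and 52347304 counts in all, and the middle pair of cells had 11146071 and 11856998. The labelled cell type was met by its markers in part: Gad1, a GABA-synthesizing enzyme, reached 10 CPM (counts-per-million) in 54 of 54 cells and Pvalb in 47, while Sst, the somatostatin interneuron peptide, lay above Pvalb in 14 cells.

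Neurexins sit on the presynaptic side of a synapse and neuroligins on the postsynaptic side, and the pair bridges the cleft. Among neuroligins, Nlgn1 is known from excitatory synapses, Nlgn2 from inhibitory synapses and Nlgn3 from both. Cerebellins are secreted proteins of the C1q family: Cbln1 and Cbln2 link neurexins that carry the splice site 4 insert to postsynaptic GluD receptors, and Cbln4 also binds the receptors Dcc and Neo1. In an interneuron, the neuroligin transcripts thus concern mainly the synapses it receives, and a cerebellin transcript a protein that it can release.

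By the GENCODE vM21 annotation of GRCm38, neuroligin genes lie on chromosome 3 (Nlgn1, 25426215 to 26332460, minus strand), chromosome 11 (Nlgn2, 69823122 to 69837784, minus strand) and chromosome X (Nlgn3, 101299168 to 101325963, plus strand). Cbln1 lies on chromosome 8 (87468405 to 87472609, minus strand) and Cbln4 on chromosome 2 (172036233 to 172043466, minus strand). All 6 are protein-coding, and the counts are per gene, over parts of it that the sources do not give. The merged exon length was 13422 bases for Nlgn1, 5785 for Nlgn2, 9271 for Nlgn3, 3037 for Cbln1, 2894 for Cbln2 and 2902 for Cbln4. Exons of Nlgn1 overlap those of the antisense gene A830092H15Rik and exons of Nlgn3 those of Gm21986. Since the strand setting is not given either, reads from those overlaps cannot be assigned with certainty.

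The starts of Nlgn2, Cbln4 and Nlgn1 are shown, since RefSeq promoters were matched for these 3 members. Each sequence is the 250 bases before and the 50 bases after the start in RefSeq on GRCm38.p6, read along the gene's own strand (minus for all 3), with every CG dinucleotide in capitals.
Nlgn2, chr11:69837735-69838034: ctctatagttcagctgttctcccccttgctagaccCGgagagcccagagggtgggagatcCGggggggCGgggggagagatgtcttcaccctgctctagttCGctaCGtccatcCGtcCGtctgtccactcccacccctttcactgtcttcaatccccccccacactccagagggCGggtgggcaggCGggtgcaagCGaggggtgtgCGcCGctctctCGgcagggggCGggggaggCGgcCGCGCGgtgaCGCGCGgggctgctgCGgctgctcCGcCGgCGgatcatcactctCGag
Cbln4, chr2:172043417-172043716: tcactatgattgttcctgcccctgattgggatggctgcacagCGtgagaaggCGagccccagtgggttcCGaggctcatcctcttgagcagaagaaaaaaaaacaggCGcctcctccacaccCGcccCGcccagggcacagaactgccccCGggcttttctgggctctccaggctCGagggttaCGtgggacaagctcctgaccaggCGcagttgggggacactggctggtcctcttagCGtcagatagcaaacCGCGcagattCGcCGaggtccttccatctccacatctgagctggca
Nlgn1, chr3:26331860-26332159: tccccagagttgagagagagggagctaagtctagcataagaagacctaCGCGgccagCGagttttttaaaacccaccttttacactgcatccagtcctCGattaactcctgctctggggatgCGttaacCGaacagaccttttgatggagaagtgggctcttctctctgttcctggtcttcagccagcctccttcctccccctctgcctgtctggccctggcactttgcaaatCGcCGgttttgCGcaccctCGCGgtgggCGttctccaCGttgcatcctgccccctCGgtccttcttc
The Nlgn2 window held 26 CG dinucleotides, more than 83.1% of the 32851 promoter windows in the table, whose median was 7. The windows of Cbln4 and Nlgn1 held 15 and 14, more than 65.4% and 63.7%. RefSeq lists a further Nlgn1 start, at chr3:26153937-26154236, whose window is not shown; it held 6 CG dinucleotides, more than 43.6%, with CCAAT once and neither GGGCGG nor TATAAA. The letters GGGCGG, searched on both strands and able to share their CG with the dinucleotide count, occurred 3 times for Nlgn2, 2 times for Cbln4 and 0 times for Nlgn1, against 35.7% of all windows with at least 1. The letters TATAAA, on both strands, were in 0 of these 3 windows and in 13.6% of all, and CCAAT was in the Cbln4 window once and in 37.4% of all. These are descriptions of letters in a window. RefSeq promoters were matched for 3 of the 6 members.

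Nlgn3 was high in nearly all cells, Nlgn2 lower but present in nearly all, and Nlgn1 high in some cells and under 1 CPM in 28 of 54. Nlgn3 was the highest of the 6 members and was detected in 54 of 54 Pass cells. Its median was 126 CPM, between extremes of 6.97 and 292 CPM, and it reached 10 CPM in 51 of 54 cells (94.4%, exact 95% binomial interval 84.6% to 98.8%). Its lowest, median and highest values were 6.97, 74.5 and 228 CPM in female P40 cells, 7.03, 141 and 292 CPM in female P42 cells, 47.2, 144 and 256 CPM in male P35 cells and 7.95, 130 and 261 CPM in male P36 cells. All 4 pools overlapped widely, and the few low cells lay in 3 of them. The cells under 10 CPM were male cell 16 (7.95 CPM), female cell 13 (7.03 CPM) and female cell 21 (6.97 CPM). Among cells just above that level, female cell 3 held 11.6 CPM.

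Nlgn2, the neuroligin of inhibitory synapses, was lower and moderately variable. It was detected in 53 of 54 cells, with a median of 11.5 CPM and a highest value of 63.2 CPM. The lowest, median and highest values were 1.59, 12.1 and 41.8 CPM in female P40 cells, 1.19, 9.20 and 19.2 CPM in female P42 cells, 3.38, 18.1 and 63.2 CPM in male P35 cells and 0, 9.64 and 28.6 CPM in male P36 cells. Male P35 cells held the highest values, and all 4 pools overlapped. It reached 10 CPM in 32 of 54 cells (59.3%, interval 45.0% to 72.4%), with 20 more between 1 and 10 CPM. Male cell 27 had 0 counts at a depth at which 3 counts would be 0.374 CPM, so a level below that cannot be seen there. The binomial intervals cover counting error only and treat cells of 1 animal as independent.

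Nlgn1, the neuroligin of excitatory synapses, had at least 1 count in 52 of 54 cells, but in 26 of these it stayed under 1 CPM. Another 8 cells lay between 1 and 10 CPM and 18 reached 10 CPM (33.3%, interval 21.1% to 47.5%), up to 72.4 CPM in male cell 7. Its lowest, median and highest values were 0, 0.268 and 36.1 CPM in female P40 cells, 0, 1.75 and 63.1 CPM in female P42 cells, 0.0713, 11.5 and 72.4 CPM in male P35 cells and 0.0644, 2.17 and 69.1 CPM in male P36 cells. Each pool held both cells under 1 CPM and cells above 30 CPM, so the groups overlapped over nearly the whole range.

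**Figure D1:**
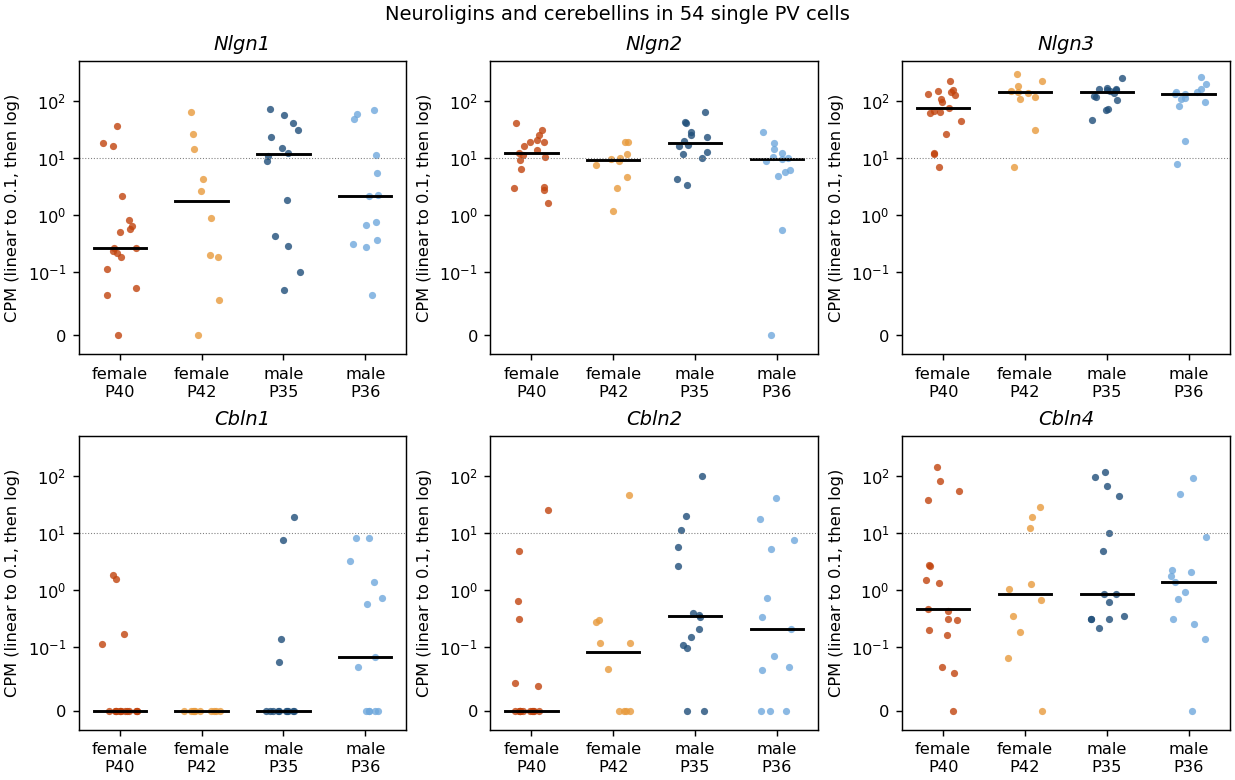
CPM of each member in each of the 54 Pass cells (points), by sex and age, on an axis that is linear up to 0.1 and logarithmic above, with black bars at the pool medians and a dotted line at 10 CPM. Nlgn3 lies above the line in 51 cells and Nlgn2 in 32, while Nlgn1, Cbln2 and Cbln4 spread from near 0 to 72.4, 99.3 and 146 CPM and Cbln1 is at 0 in 38 cells.

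Of the cerebellins, Cbln4 was the most widespread and reached the highest values. It had at least 1 count in 51 of 54 cells, with a median of 0.886 CPM and a highest value of 146 CPM in female cell 3. In 25 cells it lay above 0 but under 1 CPM, in 13 between 1 and 10 CPM and in 13 at 10 CPM or more (24.1%, interval 13.5% to 37.6%). The lowest, median and highest values were 0, 0.464 and 146 CPM in female P40 cells, 0, 0.844 and 28.1 CPM in female P42 cells, 0.214, 0.843 and 117 CPM in male P35 cells and 0, 1.37 and 93.3 CPM in male P36 cells. The medians of all 4 pools were under 2 CPM, and each pool held at least 2 cells above 10 CPM. After female cell 3, the highest cells were male cell 21 (117 CPM), male cell 5 (95.2 CPM), male cell 10 (93.3 CPM) and female cell 5 (80.3 CPM). The sides of the 10 CPM level were 9.92 CPM in male cell 8 and 12.5 CPM in female cell 18. The 13 high cells were therefore a minority present in both sexes and at all 4 ages.

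Cbln2, on chromosome 18 (86711110 to 86718283, plus strand, GRCm38), was detected in 34 of 54 cells and was high in few. It lay above 0 but under 1 CPM in 22 cells, between 1 and 10 CPM in 5 and at 10 CPM or more in 7 of 54 (interval 5.37% to 24.9%). The highest cells were male cell 21 (99.3 CPM), female cell 16 (46.7 CPM), male cell 12 (41.1 CPM), female cell 7 (25.3 CPM) and male cell 2 (20.1 CPM). The lowest, median and highest values were 0, 0 and 25.3 CPM in female P40 cells, 0, 0.0920 and 46.7 CPM in female P42 cells, 0, 0.353 and 99.3 CPM in male P35 cells and 0, 0.208 and 41.1 CPM in male P36 cells. Cells at 0 occurred in every pool, 20 in all, and for them 3 counts would be 0.107 to 0.715 CPM.

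Cbln1, the founding cerebellin of cerebellar granule cells, was close to absent at this depth. It was at 0 counts in 38 of 54 cells, under 1 CPM in 8 and between 1 and 10 CPM in 7. Male cell 24 alone exceeded 10 CPM, with 19.3 CPM. The lowest, median and highest values were 0, 0 and 1.87 CPM in female P40 cells, 0 in all female P42 cells, 0, 0 and 19.3 CPM in male P35 cells and 0, 0.0843 and 8.36 CPM in male P36 cells. The 5 highest cells were all male (male cells 24, 15, 12, 19 and 16), though most male cells were at 0 as well. For the cells at 0, 3 counts would be 0.0573 to 1.46 CPM.

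Because detection rises with depth, each Pass cell was also thinned to 2000000 counts. At that depth at least 1 count remained in 54 cells for Nlgn3, 52 for Nlgn2, 41 for Nlgn1, 41 for Cbln4, 21 for Cbln2 and 9 for Cbln1. The number of cells at 10 CPM or more moved by 2 cells at most, to 50 for Nlgn3, 34 for Nlgn2, 16 for Nlgn1, 13 for Cbln4, 7 for Cbln2 and 1 for Cbln1. Single counts are not specific to a cell type in these libraries: Slc17a7, which loads glutamate into vesicles of excitatory neurons, was detected in all 54 cells, 26 of them at 10 CPM or more. Values under 1 CPM are therefore given as detection and not as expression by the cell.

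Per kilobase of exon, Nlgn3 had a median of 13.6 CPM, Nlgn2 1.99 CPM, Cbln4 0.305 CPM, Nlgn1 0.0642 CPM, Cbln2 0.0358 CPM and Cbln1 0 CPM. Among 13676 tested genes with a length, whose middle value was 3.13 CPM per kilobase, Nlgn3 lay above 74.7%, Nlgn2 above 44.2%, Cbln4 above 31.3%, Nlgn1 above 22.7% and Cbln2 above 19.4%. Nlgn3 was above Nlgn2 in 50 of 54 cells and in the medians of 4 of 4 pools. Nlgn2 exceeded Cbln4 in 36 of 54 cells and in 4 of 4 pool medians, but in only 1 of 4 pool sums, which a few cells with high Cbln4 carry. Cbln4 exceeded Nlgn1 in 38 cells and in 3 of 4 pool medians, and Nlgn1 exceeded Cbln2 in 31 cells against 21 the other way. Beyond the first step from Nlgn3 to Nlgn2, neighbours in this order thus overlapped within cells.

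Within single cells, Nlgn3 was the highest neuroligin per kilobase in 49 of 54 cells. Its share of the 3 neuroligins had a median of 78.4% and ranged from 15.5% to 99.7%. Nlgn2 made up a median of 15.9% and Nlgn1 0.679%. In 5 cells another neuroligin led. Nlgn2 led in female cell 2 (84.3%), female cell 21 (72.4%) and male cell 16 (54.4%). Nlgn1 led in male cell 28 (54.7%) and female cell 13 (44.5%). In 4 of these 5 cells Nlgn3 was under 15 CPM, the exception being male cell 28, at 19.5 CPM.

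**Figure D2:**
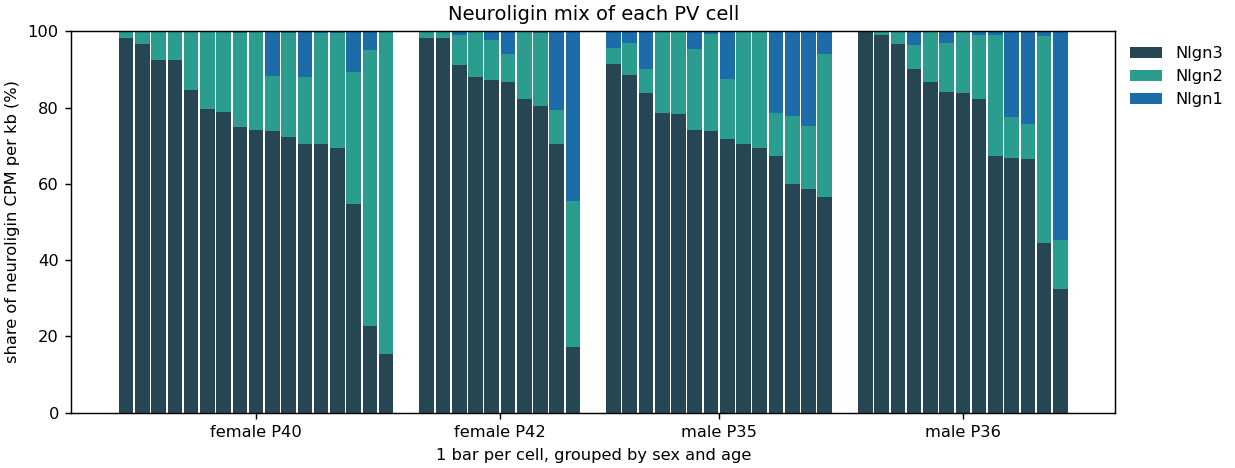
Share of each neuroligin in the summed neuroligin CPM per kilobase of each Pass cell (1 bar per cell, sorted within each pool by the Nlgn3 share). Nlgn3 fills most of the bar in nearly all cells, with a median of 78.4%, and the 5 cells led by Nlgn2 or Nlgn1 stand at the right of 3 pools.

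At a level of 10 CPM, 11 cells carried all 3 neuroligins, 26 carried 2, 16 carried 1 and 1 carried 0. For the cerebellins, 35 cells carried 0, 17 carried 1 and 2 carried 2. The most frequent combinations were Nlgn2 with Nlgn3 and no cerebellin (14 cells) and Nlgn3 alone (12 cells), and 15 combinations occurred in all. All 3 neuroligins were at 10 CPM or more in 4 of 27 female and 7 of 27 male cells, and a single neuroligin in 12 female and 4 male cells. At least 1 cerebellin was at that level in 8 female and 11 male cells, the remaining 19 and 16 having 0.

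Spread over cells followed the same division. The coefficient of variation of CPM over 54 cells was 56.6% for Nlgn3, 84.3% for Nlgn2, 165% for Nlgn1, 202% for Cbln4, 298% for Cbln2 and 320% for Cbln1. Spread falls with mean level for nearly all genes, so each value was also set against a smooth fit of spread on mean over the 14933 tested genes. On that scale Cbln4 was more variable than 95.2% of tested genes and Cbln2 than 91.2%, while Nlgn1 (75.3%), Nlgn3 (67.7%) and Cbln1 (36.7%) lay nearer the middle. Nlgn2 was more variable than 7.48% of tested genes, that is, among the steadier ones for its level. Nlgn2 and Cbln4 show the contrast at a similar mean: they averaged 14.6 ± 12.3 CPM and 16.6 ± 33.5 CPM over the 54 cells (SD). For Nlgn2, 13 cells held 50% of the summed CPM, whereas 4 cells did so for Cbln4, 6 for Nlgn1, 3 for Cbln2, 2 for Cbln1 and 17 for Nlgn3. The 2 highest cells held 13.5% of the summed CPM of Nlgn2 and 29.4% of that of Cbln4. They held 49.9% for Cbln2 and 51.7% for Cbln1. For comparison, the neurexins Nrxn3 and Nrxn2 had coefficients of variation of 47.3% and 106%.

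**Figure D3:**
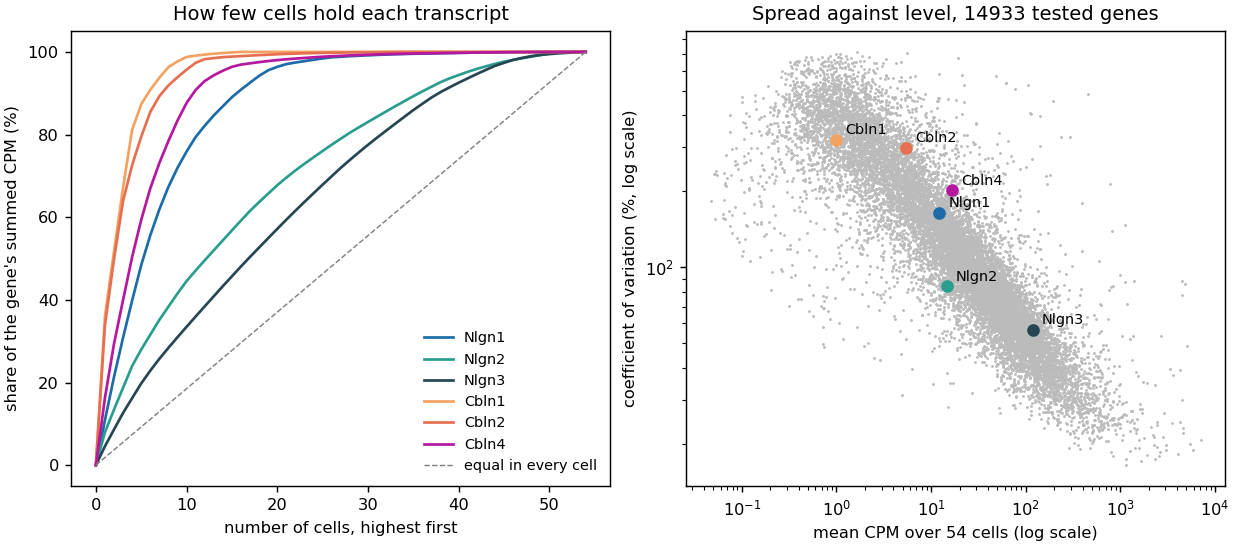
Left, cumulative share of each member's summed CPM against the number of cells, highest first, with the dashed line for equal levels. Right, coefficient of variation against mean CPM over 54 cells for 14933 tested genes (grey) and the members, both axes logarithmic. Nlgn2 lies at the low edge of the cloud for its mean and Cbln4 and Cbln2 toward the high edge.

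Pairs of members varied together weakly. Over the 15 pairs, Spearman's rho of CPM across 54 cells ranged from -0.216 (Nlgn2 with Cbln1) to 0.488 (Nlgn1 with Cbln2), with a median of 0.105, and 11 pairs were above 0. For orientation, the central 95% of rho between all pairs of 10135 genes at 1 CPM or more in at least 27 cells ran from -0.275 to 0.297. Among the members, Nlgn2 and Nlgn3 meet that limit, with 52 and 54 cells. Nlgn1 and Cbln4 had 26 cells at 1 CPM or more, Cbln2 12 and Cbln1 8. The cells share animals and differ in depth, so rho is given as a description. Nlgn1 with Cbln2 was the 1 pair outside that central range, though neither gene is in the set that gave it. Its rho was 0.231 in female cells, 0.546 in male cells and 0.595 in thinned cells. By pool it was 0.330 in female P40, -0.0625 in female P42, 0.772 in male P35 and 0.409 in male P36 cells. Of the 7 cells with Cbln2 at 10 CPM or more, 5 also had Nlgn1 at that level, against 18 of all 54 cells. Nlgn2 and Nlgn3 were at that level in 7 of these 7 cells, against 32 and 51 of all 54. The 3 neuroligins hardly followed each other: rho was 0.149 for Nlgn1 with Nlgn2, 0.0497 for Nlgn1 with Nlgn3 and 0.119 for Nlgn2 with Nlgn3. The cerebellins did not either, with rho of 0.182 for Cbln2 with Cbln4, 0.105 for Cbln1 with Cbln2 and -0.0838 for Cbln1 with Cbln4. Male cell 21 was an exception, with the highest Cbln2 (99.3 CPM) and the second highest Cbln4 (117 CPM) of all cells. It also held 809 CPM of Vip, a peptide of another interneuron class.

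Over all cells, markers of excitatory neurons and of Vip, Cck and Lamp5 interneurons moved with Nlgn1, and those of somatostatin interneurons did not. Across 54 cells Nlgn1 had a rho of 0.513 with Slc17a7 (0.245 in female and 0.744 in male cells) and 0.456 with the summed excitatory neuron list (0.415 in female and 0.531 in male cells). With the summed list of Vip, Cck and Lamp5 interneurons rho was 0.428 (0.252 in female and 0.461 in male cells), and with Cck 0.455. With Vip it was 0.365 (0.0684 in female and 0.323 in male cells). For the summed somatostatin interneuron list, rho was -0.143 (0.202 in female and -0.412 in male cells), and for Sst -0.158. With the summed PV interneuron list rho was -0.566, and with Gad1 -0.476. In male cells, lists of cells other than neurons moved with Nlgn1 too. There rho was 0.526 for microglia, 0.429 for oligodendrocytes and 0.424 for blood, against 0.110, -0.0840 and -0.141 in female cells. The astrocyte, endothelial and oligodendrocyte precursor lists lay between 0.0317 and 0.0629 in male cells. The list of Vip, Cck and Lamp5 interneurons had 6 of 6 genes in the table and summed to 3.93 to 1233 CPM in female and 62.2 to 3712 CPM in male cells. The excitatory list had 7 of 7 genes in the table, and its sum ranged from 33.0 to 615 CPM in female cells and from 22.6 to 1067 CPM in male cells. Tbr1, a marker of cortical projection neurons, was among the 2 genes of the list with a median of 0. The 2 cells with the most Nlgn1, male cell 7 (72.4 CPM) and male cell 15 (69.1 CPM), held 398 and 409 CPM of Slc17a7 and ranked 2 and 3 of all cells for the list. The next 2, female cell 12 (63.1 CPM of Nlgn1) and male cell 11 (59.6 CPM), held 32.8 and 3.17 CPM of Slc17a7, and male cell 11 held 2329 CPM of Vip. Slc17a7 also had a rho of 0.350 with Cbln2, 0.333 with Nlgn2 (0.616 in female and -0.00549 in male cells) and 0.229 with Cbln4. Without the 8 cells at 100 CPM of Slc17a7 or more, rho of Nlgn1 with Slc17a7 was 0.407 and with the list 0.312. The part of any of these cell classes in the Nlgn1 values was not tested.

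Further markers were set beside Cbln4, Nlgn3 and Cbln1, and some of them were shared with other members. Cbln4 had a rho of 0.401 with Pvalb, 0.585 in female and 0.293 in male cells, and -0.0212 with Sst. With the summed PV interneuron list its rho was -0.130 (-0.343 in female and 0.128 in male cells), and with Gad1 -0.240, so Pvalb and the list differed in sign. Even so, male cell 5, with 95.2 CPM of Cbln4, had 3298 CPM of Sst and 2.49 CPM of Pvalb. Nlgn3 had a rho of -0.309 with the summed oligodendrocyte list (-0.318 in female and -0.350 in male cells) and 0.328 with the list of Vip, Cck and Lamp5 interneurons (0.475 in female and 0.201 in male cells). That interneuron list had a higher rho with Nlgn1 (0.428) and Cbln2 (0.352), and Vip had 0.365 with Nlgn1 and 0.280 with Cbln2. Cbln1 had a rho of 0.370 with Vip (0.183 in female and 0.268 in male cells) and 0.336 with the oligodendrocyte list. Of its 5 highest cells, male cells 24, 12 and 19 held 2357, 9991 and 3297 CPM of Mbp, a myelin gene, and male cells 15 and 16 held 209 and 289 CPM. The oligodendrocyte list had 8 of 8 genes in the table and summed to 97.4 to 2307 CPM in female and 151 to 12822 CPM in male cells. The part of these markers in the Cbln1 and Nlgn3 values was not tested. Total counts had a rho between -0.279 (Cbln4) and -0.0140 (Cbln1) with the members.

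**Figure D4:**
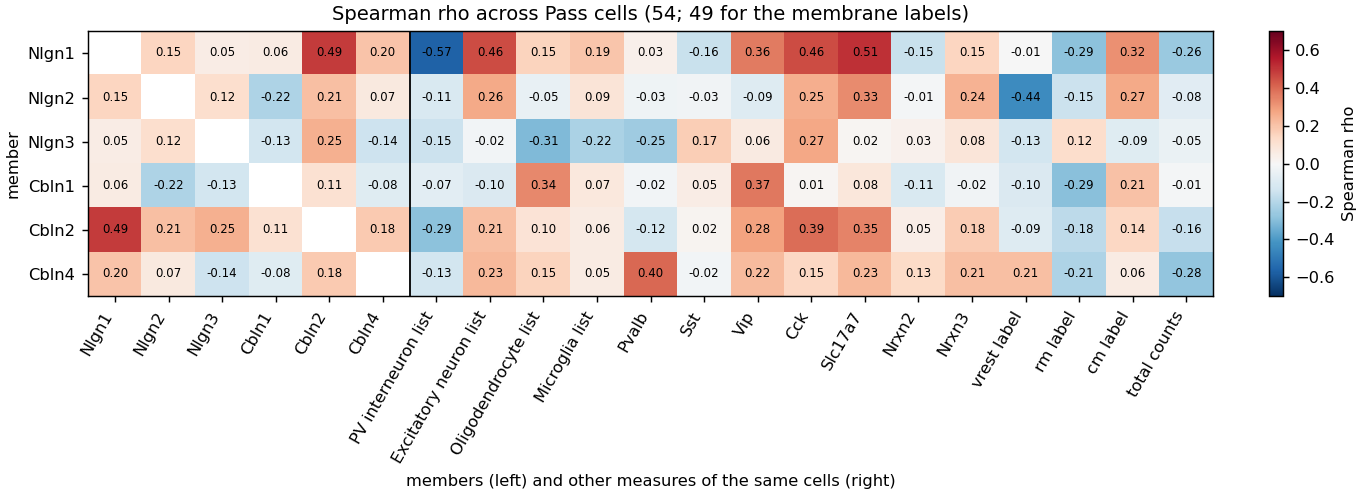
Spearman's rho across Pass cells of each member (rows) with the other members and with marker sums, single markers, neurexins, membrane values from the labels and total counts (columns), red for positive and blue for negative. The Nlgn1 row shows 0.488 with Cbln2, 0.513 with Slc17a7 and -0.566 with the PV interneuron list, and the Nlgn2 row -0.440 with the vrest label.

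The vrest label had a value in 49 Pass cells, and so did rm and cm, but these were not all the same cells. Units are not given in the labels, so ranks alone were used. Nlgn2 had a rho of -0.440 with the vrest label, that is, higher Nlgn2 in cells with a lower value. This rho was -0.264 in female cells, -0.467 in male cells and -0.372 in thinned cells. For the other members rho with vrest lay between -0.130 and 0.212. Nlgn1 had a rho of 0.317 with the cm label and -0.288 with rm, and Cbln1 had -0.293 with rm. Nlgn2 had 0.265 with cm, but -0.0532 in female and 0.465 in male cells.

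Genes with the most similar patterns over the 54 cells were listed for the 5 members with a count in at least 27 cells. For Nlgn1 these were Ptk2b (rho 0.675), a tyrosine kinase, and Cpne7 (0.648), a copine, which were 2 of the 3 closest. Both also followed Slc17a7, with rho of 0.776 and 0.716. For Cbln4 they were Necab1 (0.585), a calcium-binding protein, Gria4 (0.580), an AMPA receptor subunit, and Moxd1 (0.558), a monooxygenase. Their rho with Slc17a7 was 0.0260, 0.0649 and 0.0367. For Cbln2 they were Cacna2d3 (0.621), a calcium channel subunit, Krr1 (0.615) and Gclc (0.613), a glutathione synthesis enzyme. For Nlgn2 they were Pkp4 (0.576), a plakophilin, Msl1 (0.538) and Fmn2 (0.496), a formin, and Pkp4 stood at 0.808 in female and 0.344 in male cells. For Nlgn3 they were Aatk (0.505), a kinase, Aldh16a1 (0.493) and Hif1an (0.482). Since the best of 10135 genes is taken, such values are high for any gene: the median best rho over these genes was 0.542. The best rho of Nlgn1 exceeded that of 88.3% of genes, of Cbln2 83.1%, of Cbln4 74.4%, of Nlgn2 70.7% and of Nlgn3 19.7%. Nlgn1, Cbln2 and Cbln4 themselves reached 1 CPM in fewer than 27 cells, so they are ranked against genes seen more widely.

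Nrxn3 and Nrxn2, neurexins of the same cells, had weak rank correlations with their ligands over all cells, and some differed between the sexes. Nrxn3 had a median of 193 CPM, or 15.3 CPM per kilobase of merged exons, beside 13.6 for Nlgn3, and Nrxn2 10.2 CPM or 0.736 per kilobase. These values depend on the length used: per kilobase of the longest transcript they were 24.4 for Nrxn3, 14.7 for Nlgn3 and 1.52 for Nrxn2. The highest rho of Nrxn3 with a member was 0.243, with Nlgn2 (-0.0537 in female and 0.531 in male cells). That of Nrxn2 was 0.133, with Cbln4 (-0.109 in female and 0.463 in male cells). The differences between the sexes were not tested.

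The binding partners on the neuroligin and cerebellin side were taken from 5 lists. In the inhibitory scaffold list, Gphn, which encodes gephyrin, had a median of 85.6 CPM. All 5 genes of that list had a count in 54 cells and reached 10 CPM in 40 to 53 cells. In the excitatory scaffold list, Shank1 and Dlg3 were highest per kilobase (medians of 87.1 and 45.4 CPM). Of the neuroligin regulators, Mdga2, which binds neuroligins within the same membrane, had a median of 25.8 CPM and Mdga1 of 0 CPM. Cerebellin receptors had low medians but were high in some cells. Neo1, a Cbln4 receptor, had a median of 4.09 CPM, with 21 cells at 10 CPM or more and a highest value of 86.4 CPM. Dcc, the other one, had a count in 2 cells. Grid1, a GluD receptor, had a median of 1.41 CPM, with 11 cells at 10 CPM or more and a highest value of 79.5 CPM. C1ql1, a secreted C1q relative, had a median of 0.875 CPM but reached 669 CPM in 1 cell. Among other neurexin ligands, Nxph1, a neurexophilin, and Clstn1, a calsyntenin, led with medians of 445 and 377 CPM.

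Between the sexes, which here also differ in age, no member passed the test. The comparison addresses the sex dependence named in the study's title. Over all genes the quasi-likelihood test of edgeR, adjusted by Benjamini-Hochberg, called 2 of 14933 (0.0134%), and 0 of the 6 members were among them. At an unadjusted p under 0.05 the count of members was 0 in edgeR, 1 in DESeq2 (Nlgn1) and 2 in limma (Cbln1 and Cbln2). Limma was run on means over cells of log2(CPM + 1). Over all 14933 tested genes the counts at that p were 823 in edgeR, 1288 in DESeq2 and 763 in limma. After adjustment 0 members were called by any of the 3, with Cbln1 given no adjusted p by DESeq2. Pools are given below as CPM after TMM scaling, which offsets differences in library composition. Differences are log2, female minus male, of 2 pools against 2. Their standard error (SE) was derived from the edgeR F value, which borrows spread from all tested genes. In bulk sums such as these, fewer cells with a transcript and less of it per cell cannot be told apart, which is why cell counts are given above.

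Nlgn1 was at 2.07 and 8.84 CPM in the female P40 and P42 pools, against 15.4 and 17.2 CPM in the male P35 and P36 pools. The female pools lay below both male pools, with a difference of -1.58 (SE 0.83, edgeR adjusted p = 0.957). It reached 10 CPM in 6 of 27 female and 12 of 27 male cells. The excitatory list summed to 33.0 to 615 CPM in female and 22.6 to 1067 CPM in male cells. Slc17a7 reached 10 CPM in 13 of 27 cells of each sex, but 1 CPM in 19 of 27 female and 25 of 27 male cells. The 8 cells at 100 CPM or more were male cells 7, 15, 19, 20, 23 and 29 and female cells 7 and 27. Any part of excitatory RNA in the Nlgn1 difference was not tested. Without the 8 cells of high Slc17a7 the difference was -1.44, and it was -0.87 without female P40 and -2.96 without female P42. Cbln1 was at 0.190 and 0 CPM in the female pools, against 0.717 and 1.75 CPM in the male pools (-3.67, SE 2.28, edgeR adjusted p = 0.975). This rests on 44 counts in the female and 403 in the male cells. With limma the difference was -0.62, but on means of log2(CPM + 1), where levels under 1 CPM differ little, so the sizes cannot be compared. These 2 of 6 members had pools that did not overlap, both lower in the female pools, where 33.9% of all tested genes did not overlap in either direction and 17.3% in this one.

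The other members overlapped between the sexes. Nlgn2 was at 11.6 and 10.9 CPM in the female pools, against 22.3 and 8.60 CPM in the male pools (-0.46, SE 0.65, edgeR adjusted p = 0.994). Nlgn3, which is X-linked, was at 70.4 and 137 CPM in the female pools, against 135 and 118 CPM in the male pools (-0.29, SE 0.32, edgeR adjusted p = 0.993). Cbln2 was at 0.372 and 6.40 CPM in the female pools, against 7.10 and 3.70 CPM in the male pools (-0.67, SE 1.40, edgeR adjusted p = 0.998). Single cells carried its sums, since female cell 16 held 98.2% of the Cbln2 counts of its pool and male cell 21 held 76.5%. Cbln4 was at 36.5 and 4.50 CPM in the female pools, against 25.5 and 9.83 CPM in the male pools (0.21, SE 0.91, edgeR adjusted p = 0.999). Female cell 3, the most deeply sequenced cell, gave 90.6% of the Cbln4 counts of the female P40 pool, and without it the difference was -1.98 (edgeR adjusted p = 0.879). Its direction also turned with limma (-0.37) and with thinned cells (-0.49).

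**Figure D5:**
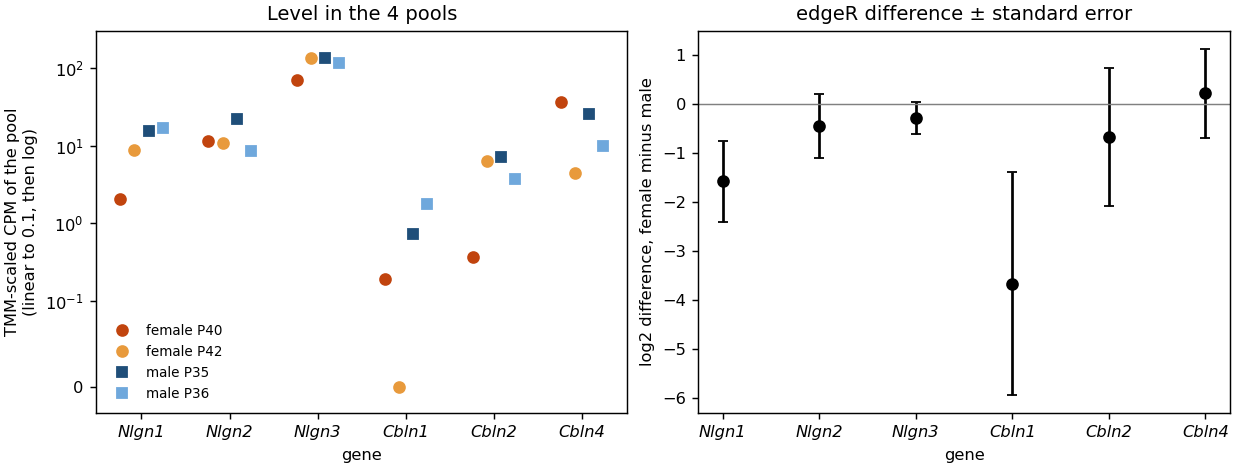
Left, TMM-scaled CPM of each member in the 4 pools (circles female, squares male; linear up to 0.1, logarithmic above). Right, log2 difference, female minus male, with a standard error derived from the edgeR F value. The female pools lie below the male pools for Nlgn1 and Cbln1, and overlap them for the other 4 members.

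Of the partner genes, 38 were in these 5 lists and 2 more were the neurexins. The number tested was 36 of the 40 in all, and 0 passed in edgeR, with 2 at an unadjusted p under 0.05 (Lrrtm1 and C1ql2). Over all tested genes 823 of 14933 were under that p in edgeR. DESeq2 and edgeR with no filter on low counts each called 1, Lrrtm1, a postsynaptic neurexin ligand (-1.76, SE 0.35, edgeR adjusted p = 0.806; 0.000684 in DESeq2 and 0.00263 with no filter). These settings were also the ones that called more genes of any kind, 186 of 14933 in DESeq2 and 111 of 20302 with no filter. The inhibitory scaffold list had 4 of 5 genes with a positive difference (median 0.12), the excitatory scaffold list 3 of 7 (median -0.07) and the other neurexin ligands 5 of 13 (median -0.07). Cerebellin receptors and relatives had 1 of 7 positive (median -1.17). Over all tested genes the median was 0.0044, with 7537 of 14933 positive.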

How the data were processed

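Per the labels' protocols, cytosol of single cells was taken up with a patch pipette, and Nextera XT libraries were sequenced from it. Per the submitters' processing notes, STAR, edgeR and the build GRCm38 were used; the sources do not give versions, the counting tool, the annotation or the strand setting. The authors deposited whole-number counts, not normalized, of 25648 genes in 58 cells, and each column matched 1 labelled cell (0 unmatched). The deposited normalized table and neurexin isoform table were not used here.

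Cells were numbered within each sex in accession order, which only names them. CPM was computed from each cell's own total, and lengths are merged exons of the 22416 genes with 1 GENCODE vM21 gene of that name. Genes with a count in at least 10 Pass cells that passed filterByExpr were tested on the 4 pool sums with edgeR 4.0.16 (TMM, quasi-likelihood F test, two-sided, adjusted p under 0.05; R 4.3.3), with DESeq2 1.42.0 and limma 3.58.1 as alternatives. With 2 pools a sex, p-values measure only the spread between pools, which may hold several animals. Spread was fitted with lowess (statsmodels 0.14.6) and rank correlations used scipy 1.17.1. The edgeR test and the spread measure were tested on simulated data. Intervals are Clopper-Pearson at 95%, and amplified copies without molecular identifiers are not independent molecules.

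The members and lists were chosen with earlier results of these data known. Named genes were the members, the neurexins, the 2 most abundant genes per kilobase of each list, those past a test, and the 3 closest in rank to each member with a count in at least 27 cells, leaving out Gm, Rik and identifier-only names. Dcc, Grid1, C1ql2, Lrrtm1 and single cells were named after their values were seen, as was the choice of promoters shown. Of the 40 listed partners, Nlgn4l was not analysed here. Some genes that these rules name are not reported here.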

Additional observations from a re-analysis of the deposited data

Results flagged for a closer look

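Among the 10 female P42 cells, 2 values stood far from the rest of their group. Female cell 12 held 63.1 CPM of Nlgn1, against 26.1 CPM in the next cell, and female cell 16 held 46.7 CPM of Cbln2, against 0.303 CPM in the next. For normally distributed values about 1 group in 20 shows such a gap by chance. The CPM values here are skewed, so the rate for them is not known.

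The 4 cells labelled Fail, which enter no comparison, also carried neuroligin counts. Nlgn3 lay above 3 counts in all 4, up to 223 CPM in male cell 4, and Nlgn2 did so in all 4, up to 27.0 CPM in female cell 10. Nlgn1 and the cerebellins had at most 3 counts in each of them.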

How the results depend on the processing

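The number of genes called between the sexes was 2, and also 2 with RLE scaling, detection in 20 cells, limma, thinned cells, without female cell 3, without the 8 cells of high Slc17a7 or without the 14 cells with Sst above Pvalb. It was 186 with DESeq2 and 111 with no filter, and 0 to 21 when a pool was left out (21 without female P40, 3 without female P42, 1 without male P35, 0 without male P36). In each setting 0 members were called. Leaving out 1 pool assumes that the lone pool varies like the others. The sign of the female minus male difference turned in 9 cases. Cbln4 gave -0.37 with limma, -0.49 with thinned cells, -1.98 without female cell 3 and -0.13 without the cells of high Slc17a7, and -1.97 to 1.06 with a pool left out (-0.31 without male P36). Without a pool, Nlgn2 ranged from -0.99 to 0.39, Nlgn3 from -0.83 to 0.12 and Cbln2 from -3.85 to 0.25. Nlgn1 ranged from -2.96 to -0.87. Cbln1 ranged from -4.17 to -2.68, except without female P40, where the female pool left had 0 counts and the fitted value depends on the prior count. The cells with Nlgn1 fell to 26 at 1 CPM and 18 at 10 CPM, those with Nlgn2 to 32 at 10 CPM and those with Cbln4 to 26 and 13. For Cbln2 they were 12, 7 and, thinned, 21, and for Cbln1 8, 1 and 9. Thinning takes reads away, so fewer cells are detected by construction. The median of Cbln4 was 1.5 CPM in thinned cells. The coefficient of variation of Nlgn2 was 73.6% without its 2 highest cells and that of Cbln1 380% without the cells of high Slc17a7. The median rho over the 15 pairs was 0.0237 in female and 0.0182 in male cells, against 0.105 in all. Within each sex it was thus nearer 0, while Nlgn1 with Cbln2 was positive in 11 of 11 alternatives (0.231 to 0.602) but not within female P42 cells alone (-0.0625). The cause of these changes was not tested. No paired analysis was possible because replicate numbers follow accession order and pair no cells. Cbln1 has no value when detection in 20 cells is required. The alternatives that leave out chosen cells were added after seeing the data.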
